A study of Homo sapiens with 8 samples.

Results

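The histone cluster genes are the clustered, mostly intronless genes named HIST1 to HIST4 that encode the linker histone H1 and the core histones H2A, H2B, H3 and H4. They were taken from RNA sequencing of tumours grown in mice from the established H2122 line of human lung cancer cells. Members were found by symbol (HIST1 to HIST4, then the histone type and a letter code, pseudogene names left out) and were selected on their measured abundance, at least 20 reads summed over the 8 libraries. Of 59050 gene symbols in the counts, 74 had such a name and 29 of these reached 20 reads: 2 of 6 H1 genes, 5 of 17 H2A genes, 13 of 22 H2B genes, 2 of 14 H3 genes and 7 of 15 H4 genes. The least abundant members were HIST1H2BO with 30 reads, HIST1H4A with 24 and HIST1H4C with 21, and just under the threshold were HIST1H1B with 19, HIST1H3B with 17 and HIST1H3E with 14. A further 21 symbols had no read in any library. Of the tumours, 4 came from parental H2122 cells, labelled wild type for SMARCA4, and 4 from H2122 cells with a knockout of SMARCA4, whose product is a motor subunit of SWI/SNF, a family of complexes that move nucleosomes. All 8 were collected from vehicle-treated animals. How the knockout was made, how many clones it represents and the host strain were not given in the sources used here. Nothing in the labels says which tumours came from separate cultures, so p-values measure the spread between these tumours only.

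Histones package DNA into nucleosomes, and cells make most of them during S phase, when newly copied DNA has to be packaged. The messages of the clustered genes are unusual among animal mRNAs in that they normally end in a conserved stem-loop instead of a poly(A) tail. The stem-loop is bound by SLBP, the stem-loop binding protein, and is needed for cleavage of the message and for its rapid decay when DNA synthesis stops. A minority of clustered genes can also use poly(A) signals further downstream, and these polyadenylated forms are known from differentiated and non-dividing cells. The sources used here do not say whether the libraries were made from poly(A)-selected or rRNA-depleted RNA, which bears on the level of every gene described here. H2A and H2B genes are often arranged in divergent pairs that share a promoter.

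The 3' stem-loop was looked for in the annotated transcripts (GENCODE 29, GRCh38) of all 74 symbols, because it is the element by which these messages are recognised. It was found in 18 of the 29 members and in 17 of the other 45 symbols. Annotated models that end at the stop codon, 8 of the members and 26 of the others, leave no room for it, and among the rest it was found in 18 of 21 and 17 of 19. The forms carried by members are shown as transcribed, with the loop in capitals and T for U, each a 16-base site.
HIST1H2AC and 9 other members, among them HIST1H2BN and HIST1H3H: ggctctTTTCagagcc
HIST1H4H and HIST4H4: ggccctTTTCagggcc
HIST1H2BC and HIST1H2BD: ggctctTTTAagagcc
HIST1H4I and HIST2H4A: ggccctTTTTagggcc
HIST2H2BC and HIST2H2BD: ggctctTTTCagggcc
HIST1H2BC and HIST1H2BD had the same stem as HIST1H2AC, and only the last base of the loop differed. The H4 genes shared a stem of their own, and HIST2H2BC and HIST2H2BD carried a stem whose arms came from both forms.

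RefSeq promoters (GRCh38.p14, from 250 bases before to 50 bases after the transcript start) were matched for 22 of the 29 members. Those of the most abundant member with a promoter in each of the H1, H2A and H2B types are shown on the strand of the gene, with capitals marking every match on either strand to TATAAA (the TATA box), CCAAT (the CCAAT box), ATTTGCAT (the octamer) or AAACACA (the H1 box), overlapping matches joined.
HIST1H1C, chr6:26056421-26056720, minus strand: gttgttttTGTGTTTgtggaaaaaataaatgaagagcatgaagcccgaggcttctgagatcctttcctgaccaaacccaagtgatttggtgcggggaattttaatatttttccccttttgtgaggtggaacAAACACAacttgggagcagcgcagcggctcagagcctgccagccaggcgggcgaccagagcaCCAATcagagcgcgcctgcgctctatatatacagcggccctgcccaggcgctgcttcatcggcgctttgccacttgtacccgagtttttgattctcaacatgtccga
HIST1H2AC, chr6:26123922-26124221, plus strand: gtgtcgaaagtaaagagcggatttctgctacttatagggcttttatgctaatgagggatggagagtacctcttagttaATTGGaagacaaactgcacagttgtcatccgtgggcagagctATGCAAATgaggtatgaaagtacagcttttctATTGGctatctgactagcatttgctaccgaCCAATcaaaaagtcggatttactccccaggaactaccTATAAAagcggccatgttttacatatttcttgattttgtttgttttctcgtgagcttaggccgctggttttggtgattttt
HIST1H2BK, chr6:27146809-27147108, minus strand: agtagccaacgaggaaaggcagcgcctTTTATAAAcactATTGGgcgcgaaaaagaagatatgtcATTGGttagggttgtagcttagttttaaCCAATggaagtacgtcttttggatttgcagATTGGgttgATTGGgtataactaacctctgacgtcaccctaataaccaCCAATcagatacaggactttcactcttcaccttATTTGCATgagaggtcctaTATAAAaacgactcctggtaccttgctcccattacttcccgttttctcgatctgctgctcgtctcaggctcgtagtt
The HIST1H1C window held AAACACA at 2 places and CCAAT at 1. The HIST1H2AC window held 3 matches to CCAAT, 1 octamer and 1 TATA box, and it also spans the annotated start of the divergent HIST1H2BC at position 26123926. The HIST1H2BK window held 6 matches to CCAAT, 1 octamer and 3 matches to TATAAA.

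The same elements recurred by histone type among the members. CCAAT was found in 9 of 9 H2B and 5 of 5 H2A promoters but in 1 of 5 H4 promoters, against 35.7% of the 27305 promoters in the RefSeq table. The octamer was found in 5 of 9 H2B and 2 of 5 H2A promoters and in no H1, H3 or H4 member, against 1.80% of all promoters. AAACACA was found in 2 of 2 H1 members, and in 6 of 6 H1 promoters when the symbols under 20 reads were included, against 5.76% of all promoters. It was also found in 1 of 5 H2A members and, over all symbols, in 2 of 12 H3 promoters. TATAAA was found in 13 of 22 member promoters and in 12.0% of all. These matches describe the letters in the windows and say nothing about which factors were bound.

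Libraries held 19785922 to 23191698 gene counts in the parental group and 20662882 to 21981123 in the knockout group. SMARCA4 itself stood at 220.1, 228.3, 198.2 and 234.9 CPM (counts scaled to the library size, after TMM normalization) in parental tumours 1 to 4. In knockout tumours 1 to 4 it stood at 29.5, 26.1, 22.3 and 31.0 CPM, or -3.02 ± 0.117 as log2 fold change with its SE (edgeR, adjusted p = 1.445e-07), so the targeted gene went with the labels in all 8 tumours. Epithelial markers were present in every tumour, with all 6 detected and summed levels of 5747 to 6918 CPM in the parental group and 4627 to 6227 CPM in the knockout group. Of these, KRT19 (1059 ± 152 and 525.6 ± 50.9 CPM) and KRT7 (1672 ± 94.5 and 1023 ± 116 CPM, SD, n = 4 each) were lower in the knockout (edgeR adjusted p = 8.485e-05 and 0.000333). The other 4 were not called, with log2 fold changes of 0.16 for KRT8, 0.11 for KRT18, 0.08 for CDH1 and -0.23 for EPCAM. All 6 are named after their values were seen. In bulk tumours, fewer cells of a type and less RNA per cell cannot be told apart.

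Histone cluster genes were higher in the SMARCA4 knockout tumours wherever the test made a call, and none was called lower. In a test over every gene with at least 20 reads in all, a filter blind to the groups that admits all 29 members, 11 members rose and 0 fell (edgeR, adjusted p under 0.05). Across the 20728 genes of that test, 10.5% were called higher. The usual filter on low counts left 16219 genes and 18 of the members, and again 11 rose, 0 fell and 7 did not pass, against 13.0% of genes called higher and 14.1% called lower. The 11 members that rose had at least the filter's level in all 4 parental tumours, so none was tested only by way of the knockout group. Mean CPM was higher in the knockout group for 25 of the 29 members and lower for 4. The median log2 fold change of all 29 members in the test with at least 20 reads was 0.495, beside 0.00325 over all genes of that test. In 11 of the 18 tested members, the same 11, all 4 knockout tumours lay above all 4 parental tumours, a separation shown by 14.0% of all genes tested.

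**Figure D1:**
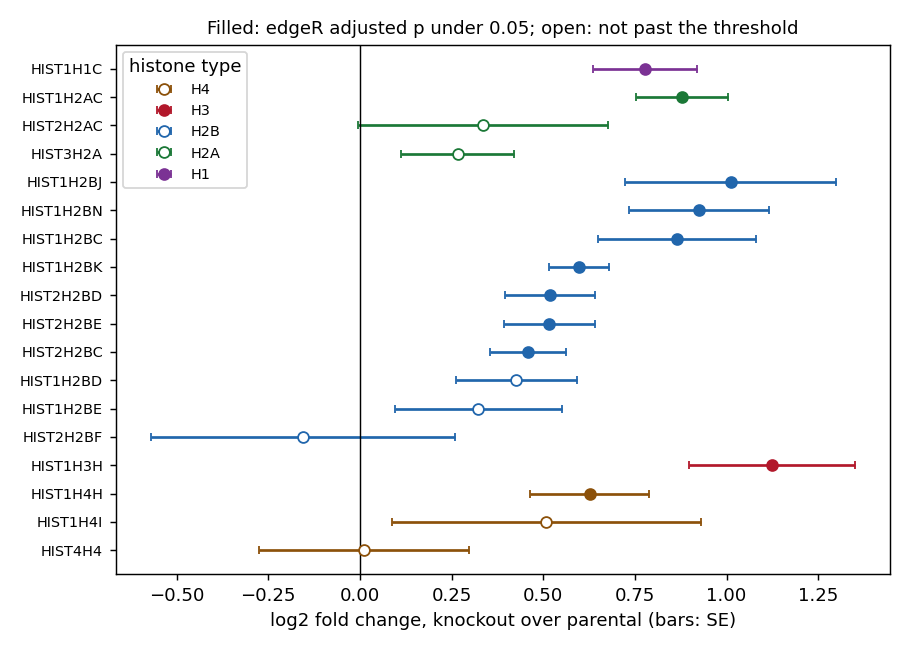
Log2 fold change of knockout over parental tumours (x axis, edgeR, bars are standard errors) for the 18 tested histone cluster genes, coloured by histone type. The 11 filled points passed the test and lie between 0.46 (HIST2H2BC) and 1.12 (HIST1H3H), while the open points run from -0.16 (HIST2H2BF) to 0.51 (HIST1H4I).

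H1 genes encode the linker histone that sits on the DNA between nucleosomes, and nearly all H1 reads came from HIST1H1C (chromosome 6, 26055787 to 26056428, minus strand, a single exon). Parental tumours 1 to 4 stood at 20.5, 27.1, 20.6 and 27.0 CPM and knockout tumours 1 to 4 at 48.9, 42.8, 38.4 and 33.1 CPM. The groups did not overlap, and the lowest knockout tumour was replicate 4. HIST1H1C rose 1.72-fold, or 0.78 ± 0.142 as log2 fold change with its SE (edgeR, adjusted p = 0.00192). None of its 50-base words occurs in a transcript of another gene. HIST1H1E, the other H1 member, had 71 reads, was removed by the usual filter and did not pass in the test with at least 20 reads (edgeR adjusted p = 0.778). Its level was 0.448 ± 0.0939 CPM (SD, n = 4) in the parental group and 0.388 ± 0.198 CPM (SD, n = 4) in the knockout group, which overlapped.

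H2A pairs with H2B in the nucleosome core, and among the 5 H2A members only HIST1H2AC (chromosome 6, 26124145 to 26139116, plus strand) passed the test. It stood at 26.6, 22.6, 22.0 and 27.3 CPM in parental tumours 1 to 4 and at 52.6, 47.8, 44.4 and 36.3 CPM in knockout tumours 1 to 4. Every knockout tumour lay above every parental tumour, and replicate 4 was again the lowest of the knockout group. The gene rose 1.84-fold (log2 fold change 0.88 ± 0.126, SE; edgeR adjusted p = 0.000386). HIST3H2A, from the small cluster on chromosome 1, was at 5.64, 6.44, 4.64 and 4.71 CPM in the parental group and 6.16, 5.79, 6.66 and 7.13 CPM in the knockout group, and the groups overlapped. Its log2 fold change of 0.27 ± 0.154 (SE) did not pass (edgeR adjusted p = 0.232). HIST2H2AC, with 83 reads, did not pass (log2 fold change 0.34 ± 0.341, SE; edgeR adjusted p = 0.509), with an error as large as the difference. The remaining 2 H2A members, HIST1H2AI and HIST1H2AK, had 70 and 41 reads. The usual filter removed them, and in the test with at least 20 reads they did not pass (edgeR adjusted p = 0.178 and 0.339). Reads of HIST1H2AK cannot be placed with certainty, since all of its exon lies opposite an exon of HIST1H2BN. For HIST1H2AI and HIST2H2AC, 62.3% and 30.5% of the 50-base words occur in other annotated transcripts, so their counts are uncertain too.

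H2B was the type with the most members, and 7 of its 10 tested genes rose. HIST1H2BK (chromosome 6, 27146418 to 27146798, minus strand) had the smallest p of all members. It was at 33.5, 31.4, 33.3 and 35.0 CPM in the parental group and 48.2, 53.2, 52.4 and 47.7 CPM in the knockout group. The spread within each group was small, and HIST1H2BK rose 1.51-fold (log2 fold change 0.60 ± 0.0808, SE; edgeR adjusted p = 0.000264). Of its 50-base words, 74.1% occur in other annotated transcripts, most often in H2BFS, an H2B copy, and how its reads were divided among these copies was not tested.

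HIST2H2BC and HIST2H2BD, on chromosome 1 at 149844498 to 149850937 and 149842875 to 149846486, are named as genes in the counts but annotated as transcribed unprocessed pseudogenes in GENCODE. HIST2H2BC stood at 41.2, 32.0, 33.4 and 38.3 CPM in the parental group and 49.6, 55.3, 45.6 and 48.5 CPM in the knockout group, and rose 1.37-fold (log2 fold change 0.46 ± 0.104, SE; edgeR adjusted p = 0.00711). HIST2H2BD stood at 28.6, 20.8, 21.4 and 24.9 CPM in the parental group and 31.8, 36.9, 30.3 and 37.9 CPM in the knockout group, and rose 1.43-fold (log2 fold change 0.52 ± 0.123, SE; edgeR adjusted p = 0.00928). In neither did the groups overlap. Whether the pair can be read as separate measurements is not known. Of the exonic bases, 30.9% of those of HIST2H2BC and 55.1% of those of HIST2H2BD lie opposite each other on the complementary strands. On either strand, 39.8% and 71.0% of their words occur in other transcripts. These shares take in words from the bases that lie opposite each other, so the 2 measures are not to be added. Whether reads were counted by strand was not given in the sources used here.

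HIST1H2BN (chromosome 6, 27837760 to 27865798, plus strand) was at 1.71, 1.76, 2.01 and 1.78 CPM in the parental group and 3.17, 4.33, 2.94 and 3.36 CPM in the knockout group. Its groups were well apart, and it rose 1.90-fold (log2 fold change 0.92 ± 0.191, SE; edgeR adjusted p = 0.00409). Its exons cover the opposite-strand HIST1H2AK and part of HIST1H2AL, over 7.25% of its exonic bases.

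The other H2B members are named here after their values were seen. HIST2H2BE rose from 8.03 ± 0.856 to 11.5 ± 0.943 CPM (SD, n = 4 each; log2 fold change 0.52, edgeR adjusted p = 0.00995) and HIST1H2BC from 5.40 ± 1.52 to 9.87 ± 1.90 CPM (SD, n = 4 each; log2 fold change 0.86, edgeR adjusted p = 0.0117). HIST1H2BJ, with 153 reads, rose from 0.590 ± 0.172 to 1.20 ± 0.272 CPM (SD, n = 4 each; log2 fold change 1.01, edgeR adjusted p = 0.0229). This was the least secure of the 11 calls. It was lost in 6 of 16 other analyses, among them those without parental tumour 1, 2 or 4 or knockout tumour 1 or 3, with adjusted p up to 0.0796.

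HIST1H2BD was the most abundant H2B gene without a call. It stood at 17.3, 16.7, 13.2 and 17.7 CPM in the parental group and 29.2, 20.8, 20.6 and 16.7 CPM in the knockout group (log2 fold change 0.43, edgeR adjusted p = 0.0798). The knockout tumour 4 lay within the parental range, and without it the edgeR adjusted p was 0.0306. With any other single tumour left out the edgeR adjusted p ran from 0.0863 to 0.237, the highest without knockout tumour 1. HIST1H2BE had a log2 fold change of 0.32 (edgeR adjusted p = 0.331) and HIST2H2BF one of -0.16 (edgeR adjusted p = 0.822), and in both the groups overlapped. The usual filter removed HIST3H2BB, HIST1H2BL and HIST1H2BO, with 50, 36 and 30 reads, and in the test with at least 20 reads they did not pass (edgeR adjusted p = 0.492, 0.344 and 0.757).

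**Figure D2:**
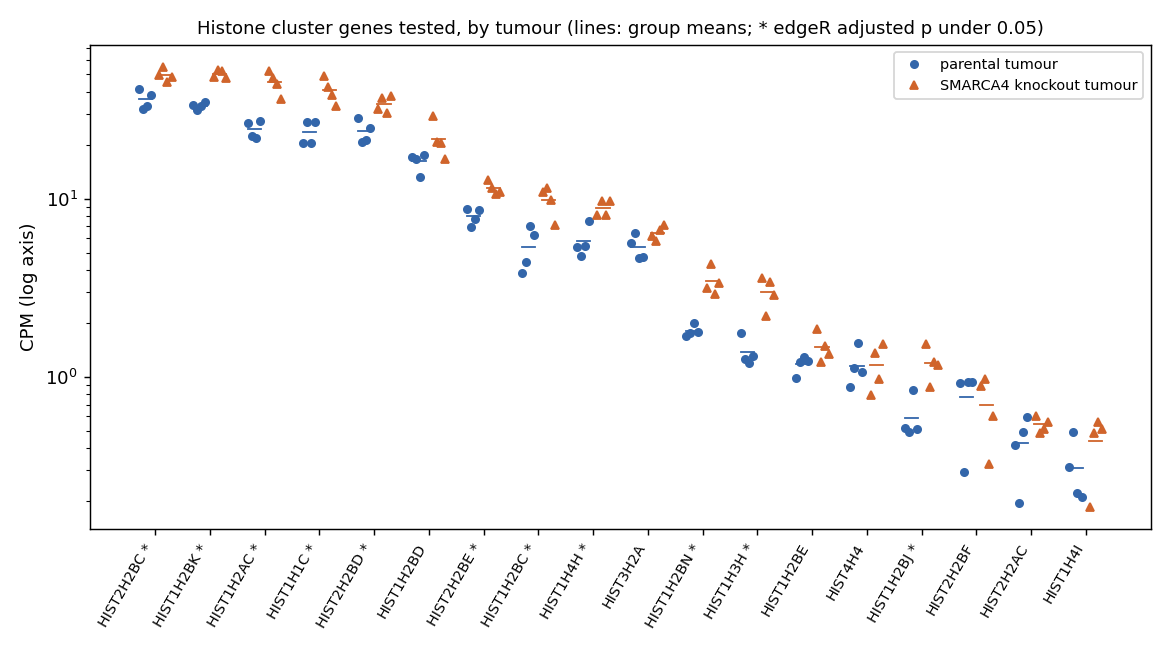
CPM in each tumour (log y axis) for the 18 tested histone cluster genes in order of abundance, with parental tumours as circles, knockout tumours as triangles and lines at the group means. In the 11 genes marked with a star every triangle lies above every circle, from HIST2H2BC at 36.2 and 49.8 CPM on average to HIST1H2BJ at 0.590 and 1.20 CPM.

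H3 and H4 form the tetramer at the centre of the nucleosome, and their clustered genes were scarce in these libraries. HIST1H3H (chromosome 6, 27810064 to 27811300, plus strand), which encodes the replication-dependent H3, was at 1.76, 1.27, 1.20 and 1.32 CPM in the parental group and 3.59, 2.19, 3.40 and 2.89 CPM in the knockout group. The groups did not overlap and HIST1H3H had the largest fold change of the 18 tested members, 2.18-fold (log2 fold change 1.12 ± 0.227, SE; edgeR adjusted p = 0.00355). None of its words occurs in another transcript. HIST1H3J, the other H3 member, had 33 reads, at 0.180 ± 0.169 CPM (SD, n = 4) in the parental group and 0.199 ± 0.153 CPM (SD, n = 4) in the knockout group. It did not pass in the test with at least 20 reads (edgeR adjusted p = 0.940). The H3 symbol HIST2H3PS2 was left out by its pseudogene name although it had 2843 reads. It stood at 15.1 ± 1.77 CPM in the parental group and 18.3 ± 1.03 CPM in the knockout group (SD, n = 4 each; log2 fold change 0.27, edgeR adjusted p = 0.0905).

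Of the 7 H4 members, 3 passed the usual filter and HIST1H4H (chromosome 6, 26277609 to 26285638, minus strand) was called. It stood at 5.38, 4.78, 5.44 and 7.47 CPM in the parental group and 8.16, 9.69, 8.11 and 9.74 CPM in the knockout group. Parental tumour 4 came close to the knockout range without entering it, and the gene rose 1.54-fold (log2 fold change 0.63 ± 0.162, SE; edgeR adjusted p = 0.0141). HIST4H4, a lone H4 gene on chromosome 12 outside the clusters, was at 0.879, 1.12, 1.56 and 1.06 CPM in the parental group and 0.793, 1.36, 0.979 and 1.54 CPM in the knockout group. The groups lay on top of each other (log2 fold change 0.01 ± 0.286, SE; edgeR adjusted p = 0.985), and the sign of this near-zero value turned when the 10 genes with the most reads were taken out of the library totals. HIST1H4I had 63 reads and did not pass (log2 fold change 0.51 ± 0.421, SE; edgeR adjusted p = 0.410). The other 4, HIST2H4A, HIST1H4K, HIST1H4A and HIST1H4C, had 21 to 63 reads and did not pass in the test with at least 20 reads (edgeR adjusted p = 0.631 to 0.844). HIST2H4A and HIST1H4K share 97.5% and 100% of their words with near-identical H4 genes, so their counts are uncertain.

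Summed over members, each histone type was higher in the knockout tumours, with no overlap between groups. H2B reached 128.0 ± 10.5 CPM in the parental group and 185.2 ± 10.6 CPM in the knockout group, a ratio of 1.45, and 1.49 without the pseudogenes HIST2H2BC and HIST2H2BD. H2A went from 30.9 ± 2.71 to 53.1 ± 6.45 CPM (ratio 1.72) and H1 from 24.2 ± 3.68 to 41.2 ± 6.76 CPM (ratio 1.70). H4 went from 8.16 ± 0.934 to 11.5 ± 1.17 CPM (ratio 1.41) and H3 from 1.57 ± 0.312 to 3.22 ± 0.672 CPM (ratio 2.05; each SD, n = 4). Except for H2B, where HIST2H2BC made up 27.5%, these sums describe mainly a single gene: HIST1H1C gave 98.7% of H1, HIST1H2AC 83.3% of H2A, HIST1H3H 92.1% of H3 and HIST1H4H 74.8% of H4. Without that gene the log2 ratio was -0.21 for H1, 0.32 for H2A, 0.14 for H3 and 0.10 for H4. Over all 29 members the sum went from 192.8 ± 13.6 to 294.2 ± 21.1 CPM (SD, n = 4 each), a ratio of 1.53.

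**Figure D3:**
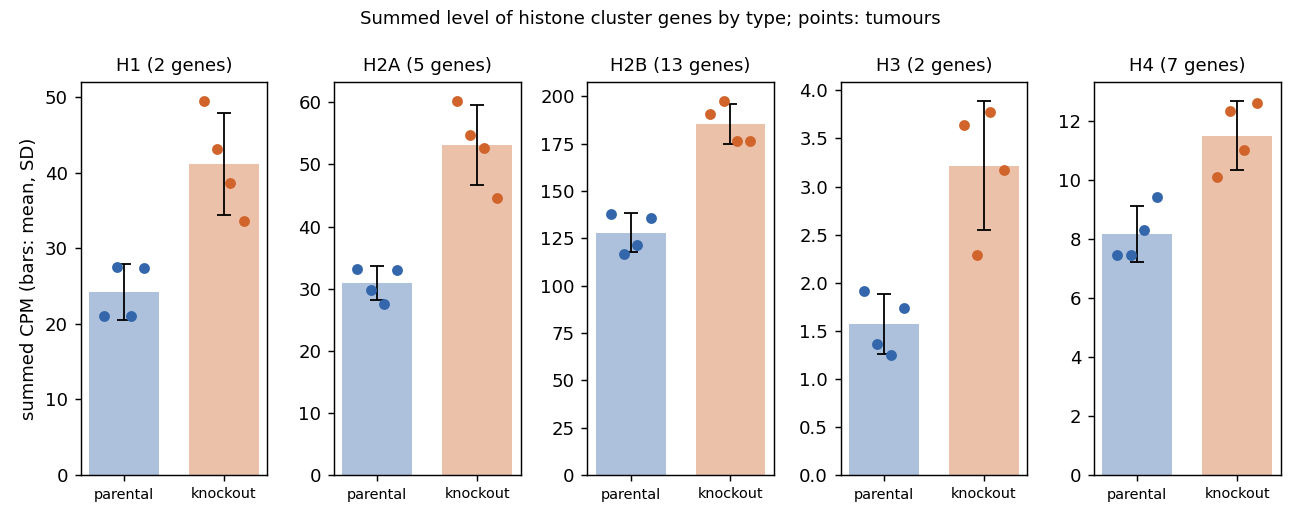
Summed CPM of the members of each histone type in each tumour (points), with bars at the group mean and error bars of 1 SD (n = 4); each panel has its own y axis from 0. Knockout tumours lie above parental tumours in every panel, from 41.2 against 24.2 CPM for H1 to 11.5 against 8.16 CPM for H4.

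The rise was present in each knockout tumour and differed somewhat in size. Over the 11 called members, whose selection fixes the direction, the median log2 difference from the parental mean was 0.81, 0.68, 0.69 and 0.56 in knockout tumours 1 to 4. The same median was 0.01, -0.18, -0.08 and 0.08 in parental tumours 1 to 4. The highest knockout value belonged to tumour 1 for 5 of the genes, to tumour 2 for 4 and to tumour 4 for 2. The lowest parental value belonged to tumour 2 for 6 genes, to tumour 1 for 3 and to tumour 3 for 2. No knockout tumour was the highest for more than 5 of the 11 genes.

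A few genes carried most of the histone cluster reads. The 5 most abundant members, HIST2H2BC, HIST1H2BK, HIST1H2AC, HIST1H1C and HIST2H2BD, held 74.4% of all member reads, and the first 10 held 94.8%. Per kilobase of annotated exon the order of levels was different. HIST1H2BK stood at 87.4 CPM per kilobase in parental tumours, HIST1H1C at 37.0, HIST1H2BD at 18.6 and HIST1H2AC at 14.8, while HIST2H2BC and HIST2H2BD, with much longer models, stood at 5.63 and 6.62. HIST1H2BK and HIST1H1C are annotated in GENCODE from start to stop codon only, so the length they are divided by leaves out their untranslated ends.

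By position, 8 of the 20 members in the large HIST1 cluster rose (55 of the symbols, chromosome 6, 25726132 to 27893843). In the HIST2 cluster (chromosome 1, 149782689 to 149887916) 3 of 6 members rose, and in the HIST3 cluster 0 of 2. These shares are over all members with at least 20 reads, and 10.5% of all such genes were called higher. The usual filter removed some of these members, among them HIST3H2BB. The called HIST1 genes were not neighbours in 1 block. HIST1H1C, HIST1H2BC, HIST1H2AC and HIST1H4H lie toward one end, HIST1H2BJ and HIST1H2BK in the middle, and HIST1H3H and HIST1H2BN toward the other end. Between them lie members without a call and symbols under 20 reads. Of 20 genes of other families inside the HIST1 interval that passed the usual filter, 5 were higher (25.0%, against 13.0% of all genes tested). Because the filters differ, this share is not directly comparable with those of the members. The 5 were U91328.1, HFE, HMGN4, PRSS16 and ZNF204P, named after their values were seen, and 1 other, TRIM38, was lower. The median log2 fold change of the 20 was 0.18.

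**Figure D4:**
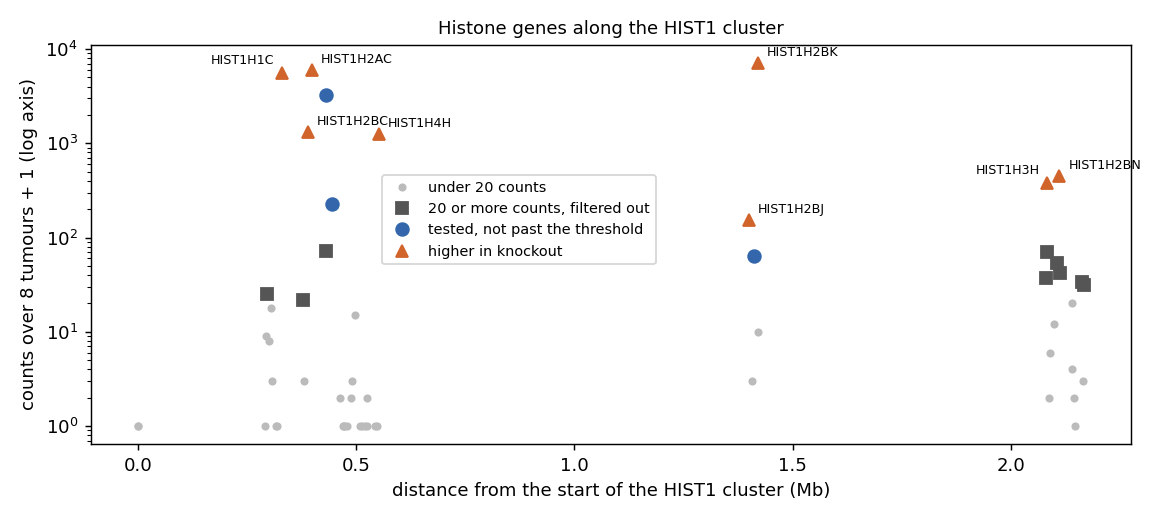
Read counts over the 8 tumours plus 1 (log y axis) of the histone symbols in the HIST1 cluster against distance from the cluster's first histone gene (x axis, Mb). The 8 genes higher in the knockout (triangles) fall in 3 stretches of the cluster, each of which also holds members without a call and symbols with under 20 counts (grey points).

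Divergent partners often had very unequal counts. Counting genes whose annotated starts lie at most 1000 bases apart on opposite strands gave 14 pairs, 10 of them with a member and 5 with 2 members. HIST1H2BC and HIST1H2AC start 219 bases apart and both rose, from 471 to 836 and from 2114 to 3841 reads summed over each group. In contrast HIST1H2BK had 7136 reads and its partner HIST1H2AH had 9. HIST1H2BJ had 153 and HIST1H2AG 2, HIST2H2BE had 1666 and HIST2H2AC 83, and HIST3H2A had 1003 and HIST3H2BB 50. HIST2H2BD had 4952 reads beside 0 for HIST2H2AA3 and HIST2H2BC 7326 beside 1 for HIST2H2AA4. Reads without a unique alignment are not in the counts, so these 2 near-identical H2A genes may be expressed although almost no read was assigned to them. Counts were nearer to each other in HIST1H2BL and HIST1H2AI (36 and 70) and in HIST1H3J and HIST1H2BO (33 and 30). However, HIST1H2BO starts 357 bases from HIST1H3J and nearer, 314 bases, to HIST1H2AM, which had 2 reads. The HIST1H3J model overlaps HIST1H2AM by 346 exonic bases on the same strand, so the HIST1H3J pair depends on this annotation.

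Annotated transcripts of many members run on past the stem-loop. At least 100 bases of annotated transcript lay past the stem-loop in 15 of 29 members and 10 of the other 45 symbols, or 15 of 21 and 10 of 19 once models that end at the stop codon are set aside. Among the 11 members that rose, 8 had such an extension (HIST1H2AC, HIST2H2BC, HIST2H2BD, HIST2H2BE, HIST1H2BC, HIST1H2BN, HIST1H3H and HIST1H4H). Of the 7 tested without a call 5 had one, and of the 11 removed by the usual filter 2. In HIST1H2AC 1128 bases lay past the stem-loop, in HIST1H3H 769, in HIST1H4H 1655 and in HIST2H2BE 1729. HIST1H1C and HIST1H2BK, the called members whose models end at the stop codon, cannot be placed in either class from this annotation. In HIST1H2BJ, the remaining called member, no stem-loop was found, although its longest annotated 3' untranslated end has 569 bases. A longer model collects more reads, and in these counts the reads past the stem-loop were not separated from those before it, so the share of extended messages was not measured.

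None of the tested histone genes outside the clustered families was called higher, although 1 was when parental tumour 2 was left out. Replication-independent variants are as a class made throughout the cell cycle and usually polyadenylated, though this need not hold for every gene listed. Of 18 listed genes 12 were tested, of which 0 rose and 4 fell (14.1% of all genes were called lower), with a median log2 fold change of -0.22. H2AFY, which encodes macroH2A, was at 308.5 ± 11.2 CPM in the parental group and 239.5 ± 20.1 CPM in the knockout group (SD, n = 4 each; log2 fold change -0.37, edgeR adjusted p = 0.00746). H3F3A, which encodes H3.3, was at 392.3 ± 25.0 and 307.2 ± 16.8 CPM (SD, n = 4 each; log2 fold change -0.35, edgeR adjusted p = 0.00810). H3F3B and H1FX, named after their values were seen, also fell, by 0.34 and 0.31 on the log2 scale (edgeR adjusted p = 0.0233 and 0.0105). The knockout tumours lay below all parental tumours for each of these 4 genes, the opposite direction to the 11 called cluster genes. The share of all tested genes that separate downward in this way was not counted.

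Most genes that make, process or destroy the histone message did not pass the test, as held for all genes tested, of which 27.0% changed. Of 20 tested, 0 rose and 2 fell, against 13.0% of all genes called higher and 14.1% called lower. The median log2 fold change of the 20 was -0.04. SLBP was at 64.8 ± 8.42 CPM in the parental group and 63.8 ± 6.06 CPM in the knockout group (SD, n = 4 each; log2 fold change -0.02, edgeR adjusted p = 0.905). NPAT, the coactivator of histone gene transcription, was at 25.4 ± 3.73 and 24.6 ± 3.31 CPM (SD, n = 4 each; log2 fold change -0.04, edgeR adjusted p = 0.851). CSTF2, a subunit of the cleavage stimulation factor used in 3' end formation, fell from 33.7 ± 4.28 to 20.9 ± 0.927 CPM (SD, n = 4 each; log2 fold change -0.69, edgeR adjusted p = 0.000640). UPF1, a helicase of RNA decay, fell by 0.25 on the log2 scale (edgeR adjusted p = 0.0200).

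Among 25 histone chaperones and importers, 0 rose and 1 fell, against 13.0% of all genes tested called higher and 14.1% called lower. The median log2 fold change of the 25 was -0.13. The gene that fell was SSRP1, a subunit of the FACT chaperone, which went from 217.6 ± 25.2 to 178.6 ± 11.3 CPM (SD, n = 4 each; log2 fold change -0.28, edgeR adjusted p = 0.04997, just under the threshold). Its list held 0 to 4 lower genes in the other analyses, and 0 without parental tumour 1 or 4 or knockout tumour 1, 2 or 3. Of 34 tested S-phase and DNA replication genes, 2 rose and 2 fell, beside the same 13.0% and 14.1% of all genes. The median log2 fold change of the 34 was -0.02. CDK2 and CCNE1, the kinase and cyclin that drive entry into S phase and act on NPAT, rose by 0.37 and 0.77 on the log2 scale (edgeR adjusted p = 0.00995 and 0.0143). CDT1, a replication licensing factor named after its value was seen, fell by 0.40 on the log2 scale (edgeR adjusted p = 0.0428). This call was lost under upper-quartile scaling, where the list had 4 higher and 0 lower genes, and without parental tumour 1 or 4 or knockout tumour 1, 2 or 3, each with 0 lower genes.

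Summed markers of other cells did not separate the groups, and the single markers given here were named after their values were seen. Summed leukocyte markers ranged from 7.30 to 66.0 CPM in parental and 12.2 to 29.2 CPM in knockout tumours, with 0 of 6 tested called. Fibroblast markers ranged from 181 to 610 and 344 to 605 CPM, mostly COL1A1 (352.6 ± 164 and 445.8 ± 131 CPM, SD, n = 4 each). Among 5 tested, LUM was higher (0.374 ± 0.236 and 12.4 ± 2.49 CPM, SD, n = 4 each). The other 4 were not called, with log2 fold changes from -0.16 (COL3A1) to 0.60 (COL1A2). Endothelial markers ranged from 7.60 to 18.1 and 8.81 to 15.5 CPM, mostly PECAM1 (7.92 ± 3.58 and 9.76 ± 3.21 CPM, SD, n = 4 each), which was not called. Of the 2 tested, VWF was lower (1.97 ± 0.805 and 0.378 ± 0.0708 CPM, SD, n = 4 each). CDH5, not tested, was at 0.05 to 1.16 CPM in parental tumours and at 0 in all 4 knockout tumours. Skeletal muscle markers ranged from 3.88 to 33.5 and 2.39 to 13.6 CPM, with MB, the only one tested, lower. The ranges of all 4 sums overlapped between the groups. None of the listed markers was at 0 in every tumour, and their part in the histone values was not tested. The tumours grew in mice and any removal of mouse reads is not given, so these counts cannot be assigned to human or mouse cells.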

How the data were processed

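Per the submitters' processing notes, the deposited read counts per gene symbol were made with TopHat2 2.1.1 and HTSeq 0.11.0 on hg38. The annotation, strandedness, RNA selection and any removal of mouse reads are not given in the sources used here. The summary lines of each file were left out. Of all reads, 3.98% to 4.31% were ambiguous and 4.52% to 8.11% not uniquely aligned. No 2 libraries were alike within sampling noise.

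The genotypes were tested with the quasi-likelihood method of edgeR 4.0.16 in R 4.3.3 (TMM, filterByExpr with a minimum count of 10 and total of 15, genotype alone, Benjamini-Hochberg over all genes tested, threshold 0.05). The code was tested on simulated data. Other analyses used DESeq2 1.42.0, limma-voom (limma 3.58.1), other scalings, filters and each tumour left out. The members and lists were chosen with earlier results of these data known. The rule for naming took SMARCA4, the 3 most abundant members of each type, the 6 called members of smallest p in each direction, 2 called genes per list, SLBP and NPAT; others are said to be named after their values were seen or stand where a sequence, position or small count is described. Positions, exons, stem-loops and shared 50-base words come from GENCODE 29 transcripts on GRCh38, and promoters from RefSeq. Word sharing was searched in transcripts and not in the genome. Of the listed genes, 3 had no row under the listed symbol, and 1 is not reported here.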

Additional observations from a re-analysis of the deposited data

Results flagged for a closer look

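In 3 of 88 sets of 4 tumours (3.41%), 1 tumour stood apart from the other 3 by Dixon's criterion; chance gives this in about 1 in 20 sets. HIST1H2BJ was at 0.847 CPM (19 reads) in parental tumour 3, where the other parental tumours were at 0.488 to 0.517 CPM. HIST2H2BF was at 0.293 CPM (6 reads) in parental tumour 2, where the others were at 0.931 to 0.936 CPM. H3F3A was at 429.3 CPM in parental tumour 4, where the others were at 376.4 to 385.4 CPM.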

How the results depend on the processing

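Across 16 other analyses, 10 to 12 members were called higher and 0 lower, and 10 of the 11 called members were called in all 16; HIST1H2BJ was the exception. The tested members' median log2 fold change, 0.52 under the usual filter, ran from 0.46 to 0.59 and all changed genes from 3501 to 4902 (3501 to 4721 with 1 tumour left out). With the replicate number as a replicate block, 11 members were higher, 0 lower and 3871 genes changed; same-numbered tumours had correlations of -0.223 to 0.0918, so the numbers do not pair them. Upper-quartile scaling put 54.1% of changed genes higher, against 47.9%, and added HIST1H2BD (edgeR adjusted p = 0.0499). HIST4H4 turned sign: -0.0014 with the 10 most abundant genes left out or at least 20 reads as the filter, -0.010 with limma-voom, -0.013 without a filter, and from -0.15 to 0.188 with 1 tumour left out (-0.10, -0.0066 and -0.038 without parental 1, 2 and 4; -0.068 and -0.15 without knockout 2 and 4). Without the most abundant gene, the log2 ratio of sums was -0.21 for H1, 0.32 for H2A, 0.14 for H3 and 0.10 for H4. Lists moved as follows, also run under these settings after the data were seen: S-phase genes 2 to 4 higher and 0 to 4 lower, chaperones 0 to 4 lower, mRNA processing 1 to 3 lower, variants 0 to 1 higher and 3 to 4 lower. Genes with few reads, such as HIST1H4I with an SE of 0.421, could not show changes of the size seen in HIST1H2BK.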
